A study of Mus musculus with 39 samples.

Results

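Keratins are the intermediate filament proteins of epithelial cells. The keratin genes of 39 mouse mammary tumours are described here, chosen as every row of the raw count table whose symbol is Krt followed only by digits, which gave 51 of 53715 genes and left out the keratin-associated proteins. All 39 tumours carried BlgCre, homozygous floxed Brca1 and a heterozygous p53 loss (Brca1fl/fl p53+/-), so Cre was driven by the beta-lactoglobulin promoter, which is active in milk-producing mammary epithelium, and the controls carried these alleles too. All came from adult female mice and were labelled adenocarcinoma of no special type. By Lyn genotype, 13 tumours were Lynfl/fl, 14 were Lynfl/wt and 12 were Lynwt/wt, where fl is a floxed allele of the tyrosine kinase Lyn. The authors also put 10 tumours in PCA group 3/4 and 29 in PCA group 1/2, and labelled 13 tumours Lyn-high and 13 Lyn-low. Both groupings were made by the authors from the expression of these same tumours, so the tests below partly restate how the groups were formed. The tumours came from 28 mice, of which 9 gave more than 1 tumour (20 tumours in all).

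A keratin filament is built from pairs of a type I (acidic) and a type II (basic) chain, and each kind of epithelium uses its own pairs. Krt8 and Krt18 are the pair of simple epithelia and mark the luminal cells of the mammary gland, whereas Krt5 and Krt14 mark its basal, myoepithelial layer. Other pairs belong to stratified squamous epithelium and to the hair follicle. Of the 51 members, 25 lie on chromosome 11, where the type I genes are clustered, and 26 on chromosome 15, which holds the type II genes and the type I gene Krt18. By known role, 7 were placed with the simple keratins, 4 with the basal, 13 with the squamous, 9 with the root sheath of the hair follicle and 15 with the hair and nail keratins, and 3 were left without a class.

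Depth was high and even, with 50490044 to 83122719 counts per tumour. Levels below are normalised counts, which are counts scaled by the TMM factors of edgeR to the mean library. The tumour identifiers begin with 1 of 2 consecutive numbers whose meaning the labels do not give. The first of these ID prefixes was that of 18 tumours and the second that of 21, and the first prefix held 7 of the 10 PCA 3/4 tumours, against 11 of the 29 PCA 1/2 tumours. The study's sample list recorded salivary gland in the section of 5 tumours, 3 in PCA 3/4 and 2 in PCA 1/2. Because whole pieces of tumour were measured, fewer cells of a type and less RNA per cell cannot be told apart. Nothing in the labels says that tumours of 1 mouse were independent, so p-values measure the spread between tumours, some of which share a mouse.

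The promoters of the keratins that the results turn on are shown first, as the 250 bases before the start of the gene in RefSeq (GRCm38.p6), 5′ to 3′ on the strand of the gene. The capitals mark TATAAA, the core of the TATA box. Krt8 and Krt18 are shown because they are the main pair and lie side by side on chromosome 15, transcribed away from each other. Krt20, Krt27 and Krt73 are shown because they were higher in PCA 3/4 tumours and hold the motif. Krt71 and Krt76, which were lower in PCA 3/4 tumours, hold it too. Krt23, also lower, and Krt42, which was higher, do not. No RefSeq promoter was available for Krt17, Krt19 or Krt83, which were also higher.
Krt8, chr15:102004343-102004592, minus strand: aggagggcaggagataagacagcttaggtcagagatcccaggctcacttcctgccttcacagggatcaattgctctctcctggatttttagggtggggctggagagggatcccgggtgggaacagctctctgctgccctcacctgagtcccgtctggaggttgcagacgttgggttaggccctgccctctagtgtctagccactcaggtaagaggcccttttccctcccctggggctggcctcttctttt
Krt18, chr15:102027966-102028215, plus strand: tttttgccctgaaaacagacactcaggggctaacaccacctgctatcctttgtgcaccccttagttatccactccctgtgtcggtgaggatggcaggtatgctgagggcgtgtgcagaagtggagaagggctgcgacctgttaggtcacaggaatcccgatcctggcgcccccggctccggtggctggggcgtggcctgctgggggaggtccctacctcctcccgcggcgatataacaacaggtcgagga
Krt20, chr11:99438154-99438403, minus strand: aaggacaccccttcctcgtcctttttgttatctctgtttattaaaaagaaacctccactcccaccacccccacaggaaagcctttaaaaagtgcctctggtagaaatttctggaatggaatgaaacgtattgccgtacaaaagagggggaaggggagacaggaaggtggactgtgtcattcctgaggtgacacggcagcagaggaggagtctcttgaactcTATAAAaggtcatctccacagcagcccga
Krt27, chr11:99351119-99351368, minus strand: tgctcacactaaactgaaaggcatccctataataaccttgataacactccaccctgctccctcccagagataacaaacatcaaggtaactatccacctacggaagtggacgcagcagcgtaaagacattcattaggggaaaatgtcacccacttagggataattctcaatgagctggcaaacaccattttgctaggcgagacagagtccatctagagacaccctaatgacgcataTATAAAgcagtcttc
Krt73, chr15:101802361-101802610, minus strand: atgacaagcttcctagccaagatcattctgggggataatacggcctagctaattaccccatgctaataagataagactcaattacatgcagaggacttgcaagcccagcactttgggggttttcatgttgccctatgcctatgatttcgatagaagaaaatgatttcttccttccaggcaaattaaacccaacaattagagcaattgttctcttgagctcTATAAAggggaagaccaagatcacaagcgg
TATAAA, searched on both strands, was found in 16 of the 35 members that the RefSeq table held, against 12.4% of all 32851 promoters of the same length. The matches were unevenly spread over the classes: 7 of 8 root sheath keratins and 5 of 9 hair and nail keratins held the letters, against 1 of 5 simple, 3 of 10 squamous and 0 of 2 basal keratins. These counts hold Krt72 and Krt84, whose matches lie on the other strand, 203 and 206 bases before the start. In Krt20 the motif began 29 bases before the annotated start, in Krt73 30 bases and in Krt27 15 bases before it. A match says only that the letters are there, and the windows of Krt8 and Krt18 hold none. The windows rest on RefSeq starts, and some Gencode genes begin earlier. The Krt14 window, chr11:100206031-100206280, lies inside its Gencode gene, chr11:100203162-100207548. The Krt8 and Krt18 windows overlap their Gencode genes, which start at 102004482 and 102028180.

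Keratin RNA in these tumours was mostly that of simple epithelium. The 51 keratins together took 992 to 5645 CPM (counts scaled to the library total, median 2359 CPM), and Krt8 and Krt18 made up 64.4% of them in the median tumour. Per kilobase of exon, which allows genes of different length to be compared, Krt18 had the highest mean level (33207 normalised counts per kilobase) and Krt8 the next (31663). They were followed by Krt19 (8584), Krt14 (5504), Krt7 (3812), Krt17 (3433), Krt23 (3018), Krt79 (878), Krt15 (391) and Krt10 (161). Only 9 members had counts in every tumour, and 14 never passed 10 counts in any tumour. No root sheath or hair and nail keratin was detected in all 39.

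The luminal and basal markers did not come as a set. Krt8 had at least 18005 and Krt18 at least 10820 counts in every tumour, whereas of the basal pair Krt14 was abundant and Krt5 was scarce. Per kilobase, Krt14 was above Krt5 in 38 of 39 tumours, with a median ratio of 52.4 over the 38 tumours that had any Krt5. Of the squamous pair, Krt10 was above Krt1 in 39 of 39 tumours, with a median ratio of 30.2 over the 35 tumours that had any Krt1. By contrast the levels of Krt18 and Krt8 were close, with a median ratio of 1.11 and a range of 0.529 to 1.93.

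**Figure D1:**
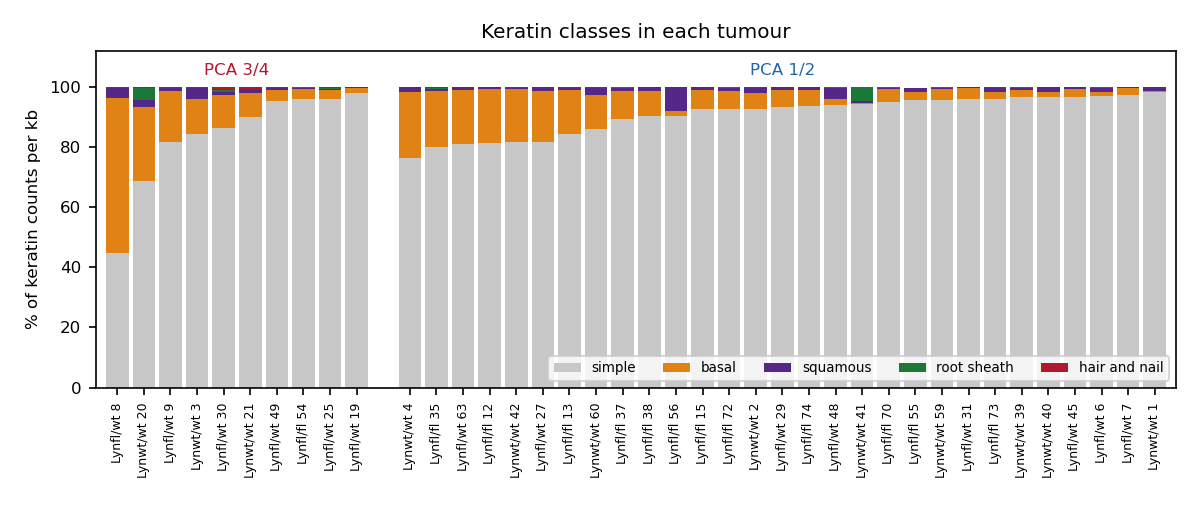
Share of keratin counts per kilobase (percent) taken by each keratin class in each tumour, by PCA group. The simple keratins take a median of 88.2% in PCA 3/4 and 93.4% in PCA 1/2 tumours, and Lynfl/wt tumour 8 has the largest basal share, 51.6%.

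As shares of all keratin counts per kilobase, the simple keratins took 44.9% to 98.0% in PCA 3/4 tumours (median 88.2%) and 76.5% to 98.2% in PCA 1/2 tumours (median 93.4%). The basal keratins took 1.59% to 51.6% in PCA 3/4 tumours (median 9.49%) and 0.129% to 21.7% in PCA 1/2 tumours (median 5.15%). The plot of class shares by tumour shows that the groups overlapped for both. The squamous keratins had medians of 1.00% in PCA 3/4 and 1.07% in PCA 1/2 tumours. Root sheath keratins had medians of 0.144% in PCA 3/4 and 0.037% in PCA 1/2 tumours, and hair and nail keratins had medians of 0.197% in PCA 3/4 and 0.052% in PCA 1/2 tumours. These shares are a description and were not tested.

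The comparison of PCA 3/4 with PCA 1/2 tumours asks how the tumours that stood apart in the authors' principal component analysis differ from the others. In PCA 3/4 tumours Krt20, Krt19, Krt17, Krt27, Krt73, Krt42 and Krt83 were higher, and Krt23, Krt71 and Krt76 were lower. Both markers of luminal cells, Krt8 and Krt18, and both markers of basal cells, Krt5 and Krt14, missed the threshold. These calls came from edgeR's quasi-likelihood F test, adjusted by Benjamini-Hochberg across the 19453 genes tested, at an adjusted p under 0.05 and at least a 2-fold change. The low-count filter passed 24 of the 51 keratins. Of these 24, 7 were higher, beside 7.71% of all genes tested, and 3 were lower, beside 6.45% of all genes tested. A keratin expressed in 1 group only could pass the filter through that group, so these 24 do not stand for all members. The median log2 fold change was 0.42 over the 24 keratins and -0.05 over all genes.

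**Figure D2:**
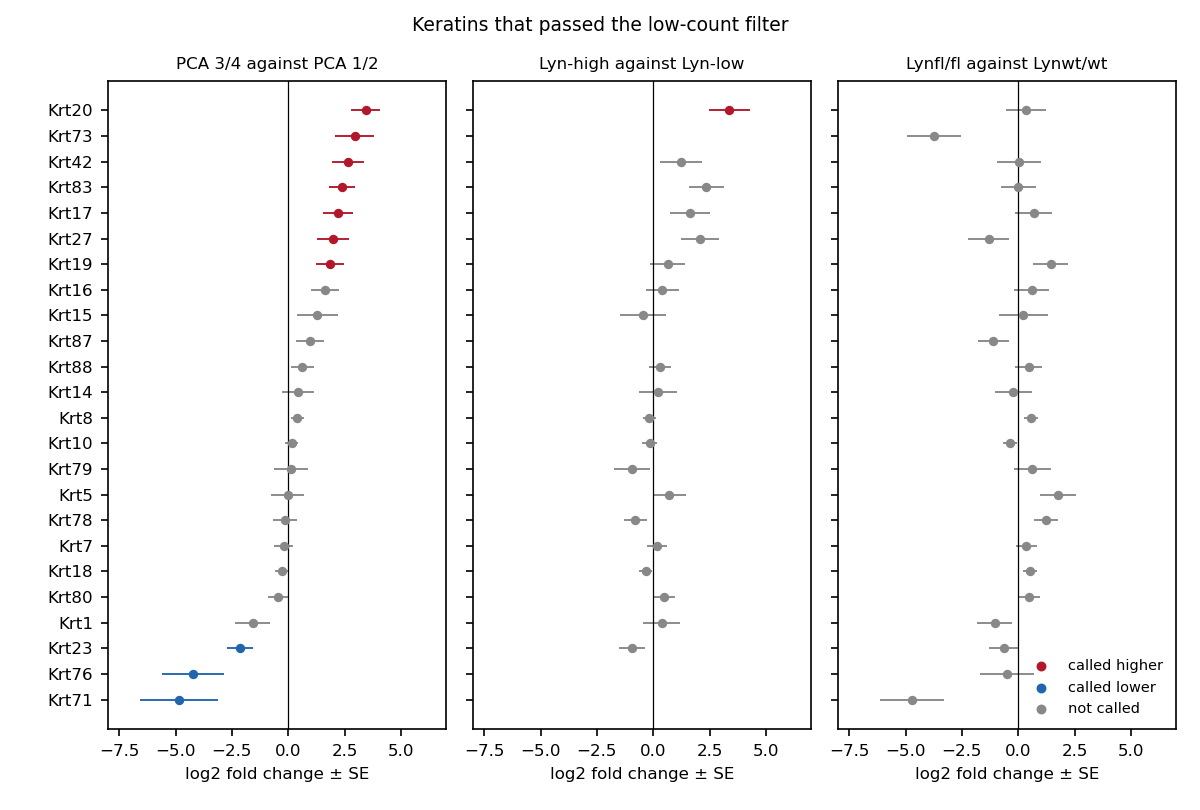
Log2 fold change and its standard error (x axis) of the keratins that passed the low-count filter, for PCA 3/4 over PCA 1/2, Lyn-high over Lyn-low and Lynfl/fl over Lynwt/wt tumours, with called keratins in colour. In the PCA panel the 7 higher keratins lie between 1.86 and 3.43 and the 3 lower between -4.86 and -2.15, the Lyn panel has 1 call, Krt20, and the genotype panel has 0.

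Among the simple keratins, the main pair was not called. Krt8 had 26116 to 185441 normalised counts in PCA 3/4 tumours (median 56901) and 19999 to 123933 in PCA 1/2 tumours (median 51693). Krt18 had 14665 to 100045 in PCA 3/4 tumours (median 28490) and 12964 to 134796 in PCA 1/2 tumours (median 47147). The groups overlapped over almost their whole range, and the log2 fold changes were 0.40 ± 0.28 (SE; adjusted p = 0.314) for Krt8 and -0.30 ± 0.29 (adjusted p = 0.511) for Krt18 in the edgeR test. Within the second prefix alone Krt8 was called higher, at 1.22 (edgeR adjusted p = 0.0260), and within the first prefix it was at -0.19 (edgeR adjusted p = 0.833). The difference between the prefixes, 1.39, had an unadjusted edgeR p of 0.0171 and an adjusted p of 0.441. Krt7, a type II keratin of ducts and glands, had medians of 18220 in PCA 3/4 and 23023 in PCA 1/2 tumours and a log2 fold change of -0.20 ± 0.43 (edgeR adjusted p = 0.788).

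The type I simple keratins Krt19, Krt20 and Krt23 passed the test. Krt19, which lacks most of the tail domain and is found in many simple and ductal epithelia, had 898 to 96510 normalised counts in PCA 3/4 tumours (median 18693) and 0 to 30878 in PCA 1/2 tumours (median 5522). The groups overlapped, with 7 of 10 PCA 3/4 tumours above the PCA 1/2 median and 4 above every PCA 1/2 tumour. The log2 fold change was 1.86 ± 0.61 (edgeR adjusted p = 0.0241), and it was 0.38 within the first prefix and 3.36 within the second (edgeR adjusted p = 0.809 and 0.0191). With the mouse as a block it was 2.03 and was not called (limma adjusted p = 0.152). Without Lynfl/wt tumour 49 or Lynfl/fl tumour 54, which held the most Krt19, it was 1.53 and 1.60, and neither passed (edgeR adjusted p = 0.087 and 0.076).

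Krt20, a keratin of intestinal epithelium, urothelial umbrella cells and Merkel cells, was a low-level transcript with 1.7 to 912 normalised counts in PCA 3/4 tumours (median 22.2) and 0 to 36.8 in PCA 1/2 tumours (median 9.5). Of the 10 PCA 3/4 tumours, 8 lay above the PCA 1/2 median. The log2 fold change was 3.43 ± 0.62 (edgeR adjusted p = 7.3e-05), 3.34 within the first prefix and 2.62 within the second (edgeR adjusted p = 0.0482 and 0.054). Lynfl/wt tumour 25 alone held 61.8% of all Krt20 counts, and without it the log2 fold change was 1.39 (edgeR adjusted p = 0.080).

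Krt23, a type I keratin of simple epithelia, was lower. It had 132 to 4000 normalised counts in PCA 3/4 tumours (median 981) and 272 to 19358 in PCA 1/2 tumours (median 4233). None of the 10 PCA 3/4 tumours reached the PCA 1/2 median, 3 lay below every PCA 1/2 tumour, and 17 of 29 PCA 1/2 tumours lay above every PCA 3/4 tumour. The log2 fold change was -2.15 ± 0.59 (edgeR adjusted p = 0.0070), -2.05 within the first prefix and -3.15 within the second, where neither passed (edgeR adjusted p = 0.070 and 0.081), and it stayed between -2.52 and -2.02 when single tumours were left out. Without the 5 tumours with salivary gland in the section it was -1.88 and was not called.

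**Figure D3:**
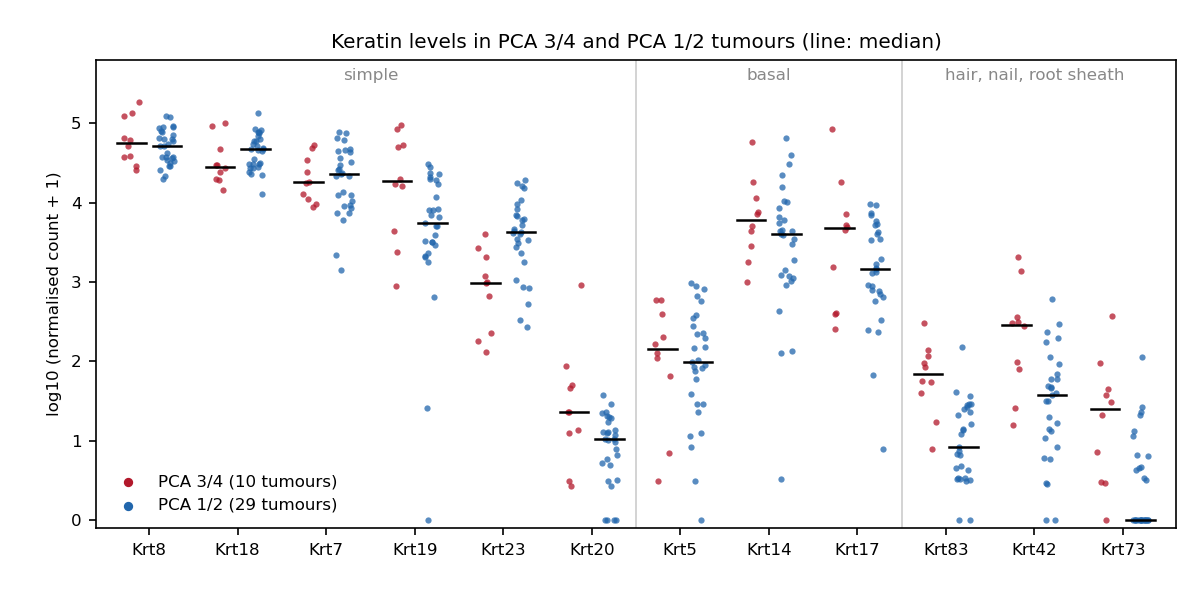
Log10 of the normalised count plus 1 of 12 keratins in each tumour, PCA 3/4 (10 tumours) left of PCA 1/2 (29 tumours), 1 point per tumour and a line at the median. Krt23 lies at a median of 981 in PCA 3/4 and 4233 in PCA 1/2 tumours, while Krt8 and Krt18 overlap.

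Of the 4 basal keratins only Krt17 passed. Krt17 is a type I keratin of basal cells and skin appendages that is induced in injured skin. It had 258 to 84113 normalised counts in PCA 3/4 tumours (median 4750) and 6.9 to 9565 in PCA 1/2 tumours (median 1454). The log2 fold change was 2.21 ± 0.65 (edgeR adjusted p = 0.0108), 1.88 within the first prefix and 1.99 within the second, where neither passed (edgeR adjusted p = 0.272 and 0.160). It was not called with the mouse as a block (1.23, limma adjusted p = 0.285) or with counts summed per mouse (1.47, edgeR adjusted p = 0.127). Lynfl/wt tumour 8 held 40.5% of all Krt17 counts, and without it the log2 fold change was 0.78 (edgeR adjusted p = 0.423). Without the 5 tumours with salivary gland in the section, of which Lynfl/wt tumour 8 is 1, the direction turned (-0.14).

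The other basal keratins were as spread within the groups as between them. Krt5 had 2.1 to 596 normalised counts in PCA 3/4 tumours (median 145) and 0 to 979 in PCA 1/2 tumours (median 96.2), with a log2 fold change of -0.02 ± 0.73 (edgeR adjusted p = 0.988). Krt14 had 999 to 58949 in PCA 3/4 tumours (median 6136) and 2.3 to 65291 in PCA 1/2 tumours (median 4097), with a log2 fold change of 0.43 ± 0.73 (edgeR adjusted p = 0.722). Krt15, a type I keratin of basal cells and hair follicle stem cells, had medians of 242 in PCA 3/4 and 111.9 in PCA 1/2 tumours (log2 fold change 1.30 ± 0.90, edgeR adjusted p = 0.319). Of 10 other myoepithelial genes, 3 were higher in PCA 3/4 tumours (Myh11, Itgb4 and Col17a1), beside 7.71% of all genes tested. Of the same 10 genes 0 were lower, beside 6.45% of all genes tested, and their median log2 fold change was -0.46. Their summed level was 43205 to 111023 in PCA 3/4 tumours (median 99880) and 17326 to 172532 in PCA 1/2 tumours (median 43766), and its part in the basal keratin results was not tested.

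Of the squamous keratins 1 of the 6 tested was called. Krt76, a type II keratin of oral and other cornified epithelia, had 0 to 12.3 normalised counts in PCA 3/4 tumours (median 0) and 0 to 405 in PCA 1/2 tumours (median 6.5), with a log2 fold change of -4.22 ± 1.37 (edgeR adjusted p = 0.0221), and it was not called with the mouse as a block (-2.32, limma adjusted p = 0.227). Krt16, a partner of Krt6 in activated keratinocytes, was above the PCA 1/2 median in 9 of 10 PCA 3/4 tumours. Its levels were 25.8 to 1634 (median 220) in PCA 3/4 and 0 to 404 (median 65.9) in PCA 1/2 tumours, and its log2 fold change of 1.61 ± 0.62 missed the threshold (edgeR adjusted p = 0.055), which it passed without Lynwt/wt tumour 1, 3 or 41 or Lynfl/wt tumour 19 or 45. Krt16 was also called with a minimum of 1 CPM, within the second prefix, with the mouse as a block and in DESeq2. Krt6a and Krt6b, which lie outside the selection because of their final letter, had log2 fold changes of 1.09 ± 0.70 and 1.42 ± 0.76 (edgeR adjusted p = 0.282 and 0.185). The suprabasal pair gave -1.59 ± 0.80 for Krt1 (edgeR adjusted p = 0.152) and 0.16 ± 0.28 for Krt10 (edgeR adjusted p = 0.744). Krt79, a type II keratin of the follicle opening and sebaceous duct, was the most abundant squamous keratin, with medians of 1045 in PCA 3/4 and 1790 in PCA 1/2 tumours and a highest level of 43067 in Lynfl/fl tumour 56 (log2 fold change 0.12 ± 0.75, edgeR adjusted p = 0.932).

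Hair follicle and nail keratins were present at low levels and gave 5 of the 10 calls. The low-count filter passed only 3 of the 15 hair and nail keratins, of which 2 were higher and 0 lower. It passed 3 of the 9 root sheath keratins, of which 2 were higher and 1 was lower. Of all genes tested, 14.2% were called in either direction. Those that passed may have done so through the group where they are high. Krt83, a type II hair shaft keratin, had 6.9 to 307 normalised counts in PCA 3/4 tumours (median 70.5) and 0 to 150 in PCA 1/2 tumours (median 7.4), and 9 of 10 PCA 3/4 tumours lay above the PCA 1/2 median. Its log2 fold change was 2.38 ± 0.57 (edgeR adjusted p = 0.0021), 3.56 within the first prefix and 1.53 within the second (edgeR adjusted p = 0.0056 and 0.352). Krt42, a type I keratin of the nail unit, had 14.8 to 2061 in PCA 3/4 tumours (median 290) and 0 to 606 in PCA 1/2 tumours (median 37.02). Its log2 fold change was 2.65 ± 0.70 (edgeR adjusted p = 0.0046), 1.36 within the first prefix and 4.19 within the second (edgeR adjusted p = 0.483 and 0.0019).

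The inner root sheath keratins were called in both directions. Krt25, a type I chain named here for its levels, did not pass the filter, with 0 to 2456 normalised counts in PCA 3/4 tumours (median 27.4) and 0 to 52.5 in PCA 1/2 tumours (median 0). Krt27, a type I chain, had 14.8 to 772 normalised counts in PCA 3/4 tumours (median 77.3) and 0 to 325 in PCA 1/2 tumours (median 19.6), with a log2 fold change of 1.97 ± 0.71 (edgeR adjusted p = 0.0401), 2.27 within the first prefix and 2.04 within the second, where neither passed (edgeR adjusted p = 0.185 and 0.257). Krt73, a type II chain, had 0 to 370 in PCA 3/4 tumours (median 24.7) and 0 to 111 in PCA 1/2 tumours (median 0), with a log2 fold change of 2.95 ± 0.88 (edgeR adjusted p = 0.0121), 2.70 within the first prefix and -0.43 within the second, where neither passed (edgeR adjusted p = 0.191 and 0.909). Krt71, also a type II chain, was lower, with -4.86 ± 1.74 (edgeR adjusted p = 0.0379), and 1 PCA 1/2 tumour, Lynwt/wt tumour 41, held 89.5% of all its counts.

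Each of these 3 calls was lost without 1 tumour. Krt71 had 0 to 25.2 normalised counts in PCA 3/4 tumours (median 3.2) and 0 to 5720 in PCA 1/2 tumours (median 4.8), and without Lynwt/wt tumour 41 its log2 fold change was -1.51 (edgeR adjusted p = 0.297). With the mouse as a block Krt71 gave -0.78 (limma adjusted p = 0.687), and with counts summed per mouse -4.84 (edgeR adjusted p = 0.063). Krt27 gave 1.29 without Lynwt/wt tumour 20 (edgeR adjusted p = 0.222), and Krt73 gave 1.74 without Lynwt/wt tumour 21 (edgeR adjusted p = 0.178). Krt27 also missed without Lynfl/wt tumour 25, 30 or 49 or Lynfl/fl tumour 54 (1.88 to 2.02), and Krt71 without Lynfl/wt tumour 8, 9, 19, 25, 30 or 49, Lynwt/wt tumour 21 or Lynfl/fl tumour 54 (-5.06 to -4.71). Under each of the 14 fits that left out 1 tumour (each PCA 3/4 tumour and 4 PCA 1/2 tumours), Krt42, Krt83, Krt23 and Krt76 were called. Without the 5 tumours with salivary gland in the section, 4 keratins were called, Krt19, Krt20, Krt73 and Krt83. Of 7 tested genes of a list for the hair shaft, 2 were higher in PCA 3/4 tumours (Foxn1, a transcription factor of hair and thymic epithelium, at a log2 fold change of 7.77, and Tchh, trichohyalin, at 2.43) and 1 was lower (Lef1, at -2.87). Only 3 of the 7 had a positive log2 fold change, and the median of the 7 was -0.16, against -0.05 over all genes. Of all genes tested, 7.71% were higher and 6.45% lower.

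Genes that work beside keratins were counted too. Of all genes tested, 7.71% were higher and 6.45% lower in PCA 3/4 tumours. Of 12 genes that tie keratin filaments to junctions, 2 were lower in PCA 3/4 tumours (Dst, at a log2 fold change of -1.28, and Pkp1, plakophilin 1, at -2.43) and 0 were higher. Of 10 general epithelial genes 1 was higher (Cldn4, claudin 4, at 1.82), and 8 cornified envelope genes gave 1 higher (Sprr1a, at 4.28) and 1 lower (Calml3, at -2.29). Of 12 luminal genes 4 were lower (Prlr, Csn3, Aldh1a3 and Pgr) and 0 were higher, and their summed level had a median of 60915 in PCA 3/4 and 153035 in PCA 1/2 tumours. Of 8 leukocyte genes 4 were higher, and their summed level was 70437 to 333798 in PCA 3/4 and 12208 to 132561 in PCA 1/2 tumours. The part of these in the keratin results was not tested.

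Although neither gene of the main pair was called, their ratio differed between the groups. This ratio was chosen after the levels had been seen, and the groups were made from the same expression values. Its p-values therefore describe how these tumours separate and are not independent support. Ratios of other genes were not compared in this way. Per kilobase, Krt18 over Krt8 was 0.529 to 1.06 in PCA 3/4 tumours (median 0.726) and 0.819 to 1.93 in PCA 1/2 tumours (median 1.18). All 10 PCA 3/4 tumours lay below the PCA 1/2 median, and 20 of 29 PCA 1/2 tumours lay above every PCA 3/4 tumour. The difference in mean log2 ratio was -0.69 (two-sided permutation test, p = 1e-05, the smallest that 100000 resamples can give). It was -0.61 within the first prefix (permutation p = 0.00129) and -0.93 within the second prefix (permutation p = 0.00074), where 3 PCA 3/4 tumours lay below all 18 PCA 1/2 tumours. Without the 5 tumours with salivary gland in the section it was -0.60 (permutation p = 5e-05), and averaging each mouse within its group (8 against 24, with 4 mice counted in both groups) gave -0.67 (permutation p = 2e-05).

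These 4 mice allow a comparison within the mouse, also chosen after the levels had been seen. The ratio was 0.765 in Lynwt/wt tumour 3 (PCA 3/4), against 1.66 and 0.911 in tumours 2 and 4 of its mouse (PCA 1/2). It was 0.529 in Lynfl/wt tumour 30, against 1.27 in tumour 31, and 0.632 in Lynfl/wt tumour 49, against 1.02 in tumour 63. In the mouse with Lynfl/fl tumours it was 0.686 in tumour 54, against 1.13 in tumour 55. The PCA 3/4 tumour was the lower in 4 of 4 mice, and no test was made, since a two-sided exact sign test over 4 mice cannot go below p = 0.125.

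**Figure D4:**
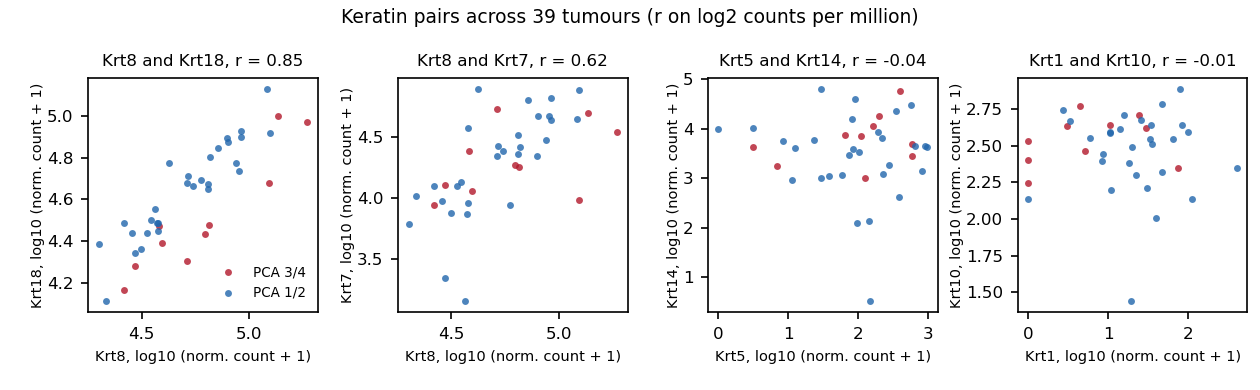
Log10 of the normalised count plus 1 of the members of 4 keratin pairs in the 39 tumours, 1 point per tumour, PCA 3/4 in red and PCA 1/2 in blue. Krt8 and Krt18 are high in the same tumours (r = 0.85), whereas Krt5 and Krt14 show no such relation (r = -0.04).

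Across tumours, the members of the luminal pair went together and those of the basal pair did not. Krt8 and Krt18 correlated with a Pearson r of 0.85 and a Spearman rho of 0.85 over 39 tumours (permutation p = 8e-05 for both, adjusted over 8 pairs). Within PCA 3/4 and PCA 1/2 tumours r was 0.93 and 0.92, within the first and the second prefix it was 0.87 and 0.84, and it was 0.83 once the 2 tumours with Krt8 farthest from its median were removed. Krt8 and Krt7, both type II, correlated with r = 0.62 and rho = 0.69 (adjusted permutation p = 0.00024 and 8e-05), with r = 0.84 within the first prefix. Within the second prefix r was 0.43 and did not pass (adjusted permutation p = 0.145), whereas rho was 0.53 and passed (adjusted permutation p = 0.0406). For Krt8 and Krt19 r was 0.32 and rho was 0.42 (adjusted permutation p = 0.127 and 0.0221).

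Krt5 and Krt14, the basal pair, had r = -0.04 and rho = 0.02 (adjusted permutation p = 0.966 and 0.90). Krt5 with Krt17 gave r = 0.02, and Krt1 with Krt10 gave r = -0.01. Krt4 with Krt13, the pair of internal stratified epithelia, gave r = 0.18 (adjusted permutation p = 0.406), with most tumours at 0 for Krt13, and Krt8 with Krt5 gave r = 0.29 (adjusted permutation p = 0.144). All these points share the total and the mix of cells of their tumour.

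The comparison of Lyn-high with Lyn-low tumours asks whether tumours differ by their level of Lyn. Only Krt20 was called. It had 1.7 to 912 normalised counts in Lyn-high tumours (median 12.5) and 0 to 22.2 in Lyn-low tumours (median 5.7), with a log2 fold change of 3.37 ± 0.91 (edgeR adjusted p = 0.0197). Of the 20 keratins tested 1 was higher, beside 5.52% of all genes tested, and 0 were lower, beside 0.508% of all genes tested (6.03% in either direction). At an unadjusted edgeR p under 0.05 there were 3, Krt20, Krt83 and Krt27, beside 3640 of all 17709 genes (20.6%). DESeq2 called 3 keratins higher, none of which was Krt20, beside 1529 of 37847 genes. Without Lynfl/wt tumour 25 the log2 fold change of Krt20 was 0.99 (edgeR adjusted p = 0.381), and within PCA 1/2 tumours it was 0.85. It was 3.66 within the first prefix and 0.61 within the second, where neither passed (edgeR adjusted p = 0.323 and 0.928). Within the second prefix 0 of all 19468 genes tested were called.

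The luminal and basal markers overlapped between Lyn groups. Krt8 had a median of 42168 normalised counts in Lyn-high and 59372 in Lyn-low tumours, and Krt18 had 30575 in Lyn-high and 47828 in Lyn-low tumours. Krt5 had medians of 149 in Lyn-high and 74.3 in Lyn-low tumours, and Krt14 had 3949 in Lyn-high and 4097 in Lyn-low tumours. Krt83 came next after Krt20, with medians of 27.8 in Lyn-high and 7.4 in Lyn-low tumours and a log2 fold change of 2.36 ± 0.77 (edgeR adjusted p = 0.058). All 8 leukocyte genes were higher in Lyn-high tumours, beside 5.52% of all genes tested. Their summed level was 36478 to 333798 in Lyn-high and 12208 to 59993 in Lyn-low tumours. Their part in the keratin values was not tested. Of the Lyn-high tumours 6 of 13 were PCA 3/4, and of the Lyn-low tumours 0 were.

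The comparison of genotypes asks how the tumours differed by their Lyn alleles. The label gives the alleles and not the loss of Lyn, and 2 of the 13 Lynfl/fl tumours were labelled Lyn-high. No keratin passed in any of the 3 contrasts, out of 24 tested in each. Between Lynfl/fl and Lynwt/wt tumours 4 had an unadjusted p under 0.05, between Lynfl/wt and Lynwt/wt 6, and between Lynfl/fl and Lynfl/wt 3, and DESeq2 called 0 in each contrast. In the same order, 2192 (11.5%), 2123 (11.2%) and 1333 (7.02%) of all 18998 genes had an unadjusted edgeR p under 0.05. Of all genes, 0.00526% were higher and 0.0263% lower (0.0316% in all) in Lynfl/fl over Lynwt/wt, 0.0158% were lower in Lynfl/wt over Lynwt/wt, and 0 were called between Lynfl/fl and Lynfl/wt.

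Krt8 had 28698 to 185441 normalised counts in Lynfl/fl tumours (median 65454), 26164 to 122704 in Lynfl/wt tumours (median 53151) and 19999 to 135521 in Lynwt/wt tumours (median 32556), and the groups overlapped. The log2 fold change of Lynfl/fl over Lynwt/wt was 0.56 ± 0.31 for Krt8 (edgeR adjusted p = 0.504) and 0.51 ± 0.31 for Krt18 (edgeR adjusted p = 0.555). Krt5 had medians of 225 in Lynfl/fl, 117 in Lynfl/wt and 33.1 in Lynwt/wt tumours, with a log2 fold change of 1.77 ± 0.79 for Lynfl/fl over Lynwt/wt (edgeR adjusted p = 0.373). Krt14 gave -0.22 ± 0.83 for the same contrast (edgeR adjusted p = 0.950). Krt19 had medians of 8310 in Lynfl/fl, 16842 in Lynfl/wt and 2353 in Lynwt/wt tumours, with log2 fold changes over Lynwt/wt of 1.44 ± 0.78 for Lynfl/fl and 2.00 ± 0.78 for Lynfl/wt (edgeR adjusted p = 0.484 and 0.325).

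**Figure D5:**
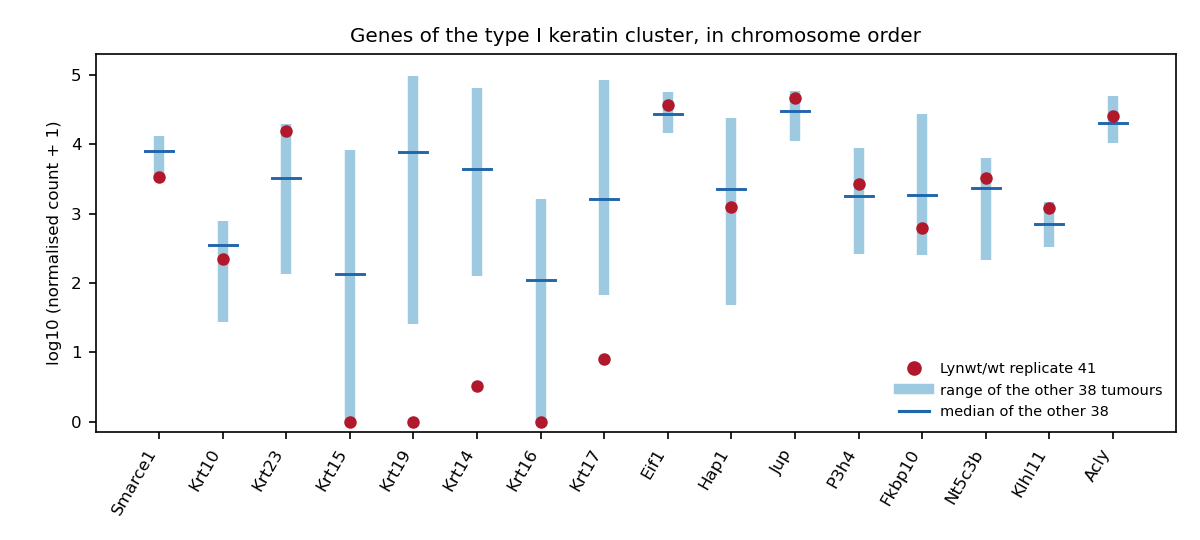
Log10 of the normalised count plus 1 of genes in and around the type I keratin cluster, in chromosome order, for Lynwt/wt tumour 41 (points) over the range (bars) and median (lines) of the other 38 tumours. Krt15, Krt19, Krt14, Krt16 and Krt17 lie at 0 to 6.9 in this tumour, while Krt23 before them and Eif1 after them do not.

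Lynwt/wt tumour 41, a PCA 1/2 and Lyn-high tumour and the only tumour of its mouse, had almost no counts of a run of neighbouring keratins. It had 0 counts of Krt15, 0 of Krt19, 2 of Krt14, 0 of Krt16 and 6 of Krt17 out of 60132593, genes which lie together on GRCm38 at chr11:100131758-100261029. Krt42, the next keratin along, also had 0. In the other 38 tumours the median was 7600 normalised counts for Krt19 and 1643 for Krt17, and each of Krt19, Krt14 and Krt17 was below all other tumours in this one.

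The nearest expressed genes on both sides were within the range of the other tumours, named here after their values were seen. Krt23, 639 kilobases before Krt15, had 15453 normalised counts against a median of 3255 in the others, and Eif1, 58.9 kilobases after Krt17, had 36925 against 27104. Farther on the side of Krt23, Casc3, Rara, Ccr7 and Smarce1 were below all other 38 tumours. Krt8 and Krt18, on chromosome 15, had 36576 and 36007. The same tumour held the highest Krt1 (413 normalised counts) and Krt71 (5720, where the next tumour had 177). Its summed level of 10 salivary gland genes was also the highest of all tumours (16829, against a PCA 1/2 median of 450), with 3 of the 10 genes at 0. Next came Lynwt/wt tumour 60 (9754) and Lynwt/wt tumour 59 (5525). Tumours 41, 60 and 59 were not among the 5 with salivary gland recorded in the section. Those 5 ranked between 15 and 38 of 39 for this sum. Whether salivary tissue has a part in the keratin values was not tested.

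Other tumours led for 1 or several keratins. Lynfl/wt tumour 8 had the highest Krt17 and the next highest Krt14 (58949) and Krt79 (24025), Lynwt/wt tumour 20 had the highest Krt27 (772), and Lynfl/wt tumour 30 had the highest Krt16 (1634) and Krt42 (2061). Lynwt/wt tumour 42 had no count of Krt5.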

How the data were processed

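RNA of 39 tumours was sequenced as poly(A)-selected directional libraries, 1 per tumour. The authors used fastp for trimming, STAR 2.5.1b for alignment to GRCm38 (uniquely mapping reads only) and featureCounts 1.5.1 for counting by Gencode vM17 gene; the strand setting is not given in the sources used here. The deposited raw counts, as whole numbers per gene, were the start of every value here. The 39 columns of normalised counts and the columns of the authors' own comparisons (fold changes and p-values) were not used. Of counts from 1 to 10, 79.8% were even, and 27 symbols had turned into dates, none of them a keratin.

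Total counts were 50490044 to 83122719 per tumour. The standard errors given with edgeR fold changes were the absolute log2 fold change over the square root of its quasi-likelihood F. They thus include the spread between tumours. Genes were tested with edgeR 4.0.16 in R 4.3.3 (filterByExpr, TMM, quasi-likelihood F test, Benjamini-Hochberg over all genes kept), with calls made at adjusted p under 0.05 together with a fold of 2 or more up or down. Lyn groups were fitted on their 26 tumours, PCA groups and genotypes on all 39. Alternatives were DESeq2 1.42.0, limma 3.58.1 with the mouse as a block (consensus correlation 0.035, 0.069 and -0.016 in the PCA, Lyn and genotype fits), counts summed per mouse, other filters and scaling, the prefix of the tumour identifiers, and leaving out tumours. The fits were tested on simulated data. Pairs were correlated on log2 CPM (prior count 1) with 100000 permutations in Python 3.11.15. Lengths and positions came from Gencode vM21. The genes named are the 4 markers, every keratin called, the members of 8 pairs, the 10 with the highest level per kilobase, Krt6a and Krt6b, and up to 4 genes with the smallest p of each other list; further names were chosen after their values were seen. The members and lists were chosen with earlier results of these data known.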

Additional observations from a re-analysis of the deposited data

Results flagged for a closer look

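Of the 24 keratins tested in PCA 3/4 tumours, 1 had a tumour far from the others. Krt80 was lowest in Lynfl/wt tumour 49, and the gap to the nearest tumour took 0.472 of the range of the 10 tumours. On this log scale Krt20 in Lynfl/wt tumour 25 (0.405) and Krt17 in Lynfl/wt tumour 8 (0.262) stayed under the limit, although both tumours led widely in normalised counts. Chance alone sets a tumour apart in about 1 in 20 such groups. The difference between PCA 3/4 and PCA 1/2 tumours was also compared between the 2 ID prefixes, and 0 of 24 keratins differed at an adjusted p under 0.05 in edgeR, with 2 at an unadjusted p under 0.05.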

How the results depend on the processing

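For PCA 3/4 against PCA 1/2 tumours, the 10 calls among 24 keratins tested became 20 of 51 with no low-count filter and 6 of 15 with a minimum of 1 CPM. They became 2 of 22 within the first ID prefix, 6 of 30 within the second and 4 of 25 without the 5 tumours with salivary gland in the section. All other settings gave a count within 1.5 times. Of all genes, 2978 were higher and 1880 lower of 39304 with no filter, and 1119 and 1000 of 15207 with 1 CPM. These numbers were 644 and 378 of 18478 within the first prefix, and 1356 and 802 of 21424 within the second. Without the salivary tumours they were 1344 and 861 of 19942. The same 10 were called with no filter, with RLE scaling and by adjusted p alone. A minimum of 1 CPM lost Krt20, Krt71, Krt73, Krt83 and Krt76, the prefix as a covariate lost Krt71 and Krt73, the mouse as a block lost Krt19, Krt17, Krt71 and Krt76, sums per mouse lost Krt17 and Krt71, and DESeq2 lost Krt20 and Krt71. Only Krt20 and Krt83 were called within the first prefix, and within the second Krt19 and Krt42 together with Krt25, Krt8, Krt16 and Krt4. Krt16 was gained with 1 CPM and the mouse block, Krt25 with sums per mouse, and Krt75, Krt25, Krt16, Krt15 and Krt4 in DESeq2. Leaving out single tumours, all but 1 of these fits chosen after seeing the data, gave 7 to 12 calls.

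For Lyn-high against Lyn-low tumours, the 1 call became 6 with no low-count filter, 3 in DESeq2 and 0 with a minimum of 1 CPM, the prefix as a covariate, either prefix alone, the mouse as a block or counts summed per mouse. Within the second prefix 0 of all 19468 genes tested were called, so the loss of Krt20 there was not particular to it. Of all genes, 286 were higher and 17 lower of 19209 within the first prefix, and 1647 and 212 of 37847 with no filter. Within PCA 1/2 tumours the 1 call was Krt79 (lower), not Krt20. Leaving out single tumours, all but 1 of these fits chosen after seeing the data, gave 0 to 2 calls, with 0 without Lynfl/wt tumour 25 and 2 without Lynwt/wt tumour 41. No genotype contrast gave a call under any setting.

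Directions turned for keratins that were not called in most cases. For PCA 3/4 against PCA 1/2, the log2 fold change was -0.19 for Krt8 within the first prefix and 0.25 for Krt18 within the second prefix. For Krt5 it was 0.025 with the prefix as a covariate, 0.12 within the second prefix, 0.19 with the mouse as a block and up to 0.14 without single tumours (lowest -0.30). For Krt14 it was -0.18 within the first prefix, -0.40 without the 5 salivary tumours and -0.41 without Lynfl/wt tumour 8 (highest 0.56 without a tumour). The called Krt17 gave -0.14 without the 5 salivary tumours, and the called Krt73 gave -0.43 within the second prefix. For Lyn-high against Lyn-low, Krt14 gave -0.57 with the prefix as a covariate, -0.59 within the first and -0.59 within the second prefix, -0.76 without the salivary tumours and with the mouse as a block, -0.65 without Lynfl/wt tumour 8 (highest 0.27, without Lynwt/wt tumour 41) and -0.83 within PCA 1/2. For Lynfl/fl against Lynwt/wt, Krt14 gave 0.14 with the prefix as a covariate, 0.16 within the first prefix, 0.22 within the second prefix, 1.38 with the mouse as a block and 0.64 with counts summed per mouse. The cause was not tested.

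Among pairs, where the values within PCA 3/4 and without Lynwt/wt tumour 41 were also chosen after seeing the data, Krt8 with Krt19 passed within the first prefix (r = 0.59), and Krt8 with Krt7 missed within PCA 3/4 (0.46) and within the second prefix by r (0.43). Krt5 with Krt14 gave r = 0.34 within PCA 3/4, 0.084 within the first prefix, 0.0037 per mouse and 0.018 without the 2 farthest tumours. Krt5 with Krt17 gave -0.11 within PCA 1/2, -0.19 within the second prefix and -0.028 without the salivary tumours. Krt1 with Krt10 gave 0.017 within PCA 1/2, 0.023 within the second prefix, 0.024 without Lynwt/wt tumour 41, 0.25 within PCA 3/4 and 0.038 without the 2 farthest. Krt4 with Krt13 gave 0.60 within PCA 1/2, where it passed, and -0.27 within PCA 3/4. Krt13 had no count in 34 of the 39 tumours, and Lynfl/fl tumour 37, a PCA 1/2 tumour, held 81.8% of all its counts.

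No paired test was made. Only 4 mice had tumours in both PCA groups, and they enter through the mouse block and the Krt18 to Krt8 ratio within mice. Depth limits the 14 keratins with at most 10 counts in every tumour.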
